A study of Rattus norvegicus with 15 samples.

Results

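The 33 genes of the ATF4 amino acid response were followed in cultured rat hepatocytes exposed to naphthalene or to a hydroxylated analog. The genes are those of the regulators of this response and of its targets in amino acid synthesis, amino acid transport, tRNA charging and stress signalling, and they were found on the array through the transcript accession of each gene probe. Of the 33, 32 had a gene probe by this rule and 31 were tested, among 19803 genes tested in all. Slc7a1, an importer of cationic amino acids, had no probe by this rule, and the only probe of Stc2, a secreted glycoprotein, was not well above background on any array. The hepatocytes came from male Wistar rats (spelled Wister in the labels), were bought cryopreserved, and were cultured for 24 h before a 24 h exposure. The 5 groups, of 3 arrays each, received the solvent DMSO or 30 µM of naphthalene, 1-naphthol, 1,5-naphthalenediol or 2,7-naphthalenediol. Nothing in the labels says how many animals the cells came from, so the spread between arrays is that of 3 experiments per condition and may not be that between animals.

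ATF4 is a transcription factor whose mRNA is translated better when the initiation factor eIF2 is phosphorylated by a stress kinase, such as GCN2 in amino acid shortage or PERK in stress of the endoplasmic reticulum (ER). Paired with a C/EBP protein, ATF4 binds composite elements in the promoters of genes that make, import and charge amino acids, and of regulators such as CHOP (Ddit3) and Trib3 that feed back on the response. In liver this program links the supply of serine, glycine, asparagine and cysteine to protein and glutathione synthesis. The arrays measure mRNA, so ATF4 protein and eIF2 phosphorylation were not measured.

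Each level below is the log2 intensity of a gene's probe minus the log2 of that array's 75th percentile, and values on the 3 arrays of a group are given in the order of the replicate numbers. Levels are compared between groups for 1 gene, never between genes, because probes differ in brightness. Differences are log2 differences of the group means ± standard error over 3 arrays per group, from 1 limma model over all 15 arrays, and a gene is called, or said to rise or fall, at an adjusted p below 0.05. The arrays lay on 2 slides. Slide 1 held the DMSO arrays, those of 2,7-naphthalenediol and 1,5-naphthalenediol 1 and 2, and slide 2 held 1,5-naphthalenediol 3, the 1-naphthol arrays and the naphthalene arrays. For the last 2 compounds slide and exposure therefore cannot be told apart except through 1,5-naphthalenediol, and values from a model with the slide as a block (the slide block) are given beside the results they change.

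All 12 hepatocyte markers looked for, such as Alb and Apob, were well above background on all 15 arrays. Their summed level was 9.151 to 9.194 in DMSO and 9.054 to 9.149 with the compounds, so every treated array lay below DMSO. Against DMSO, 3 were higher and 1 lower with 1,5-naphthalenediol (9.24% and 12.7% of all genes), and 1 and 0 with 1-naphthol (10.7% and 9.49%). Naphthalene had 0 and 3 (12.1% and 12.8%) and 2,7-naphthalenediol 0 and 0 (5.83% and 5.48%). With the slide as a block these were 4 and 1, 0 and 0, 0 and 0, and 0 and 1. Of 39 markers of other liver cell types looked for, 36 had a probe, and 18 of these were not well above background on any array, among them Lrat and Dcn of stellate cells, Adgre1, Clec4f, Marco and Csf1r of macrophages, Pecam1 and Lyve1 of endothelium, Krt19 of bile duct and Ptprc and Cd3e of lymphocytes. A further 10 were well above background on all 15 arrays: Col1a2, Acta2 and Des of stellate cells, Cd68 and C1qb of macrophages, Cdh5 and Vwf of endothelium, Epcam and Sox9 of bile duct and Cd3d of lymphocytes. The other 8 passed on some arrays. The bile duct marker Epcam was the marker of another cell type that differed most often: it was lower with 2,7-naphthalenediol (-0.44), 1,5-naphthalenediol (-0.32) and 1-naphthol (-0.49), and Sox9, also a bile duct marker, was higher with 1-naphthol (0.40) and naphthalene (0.36). With the slide as a block 0 bile duct markers were called with 1-naphthol or naphthalene, and 1 was lower with each diol. Cd3d was lower with 2,7-naphthalenediol (-0.39), and no other marker of cell types other than hepatocytes was called against DMSO in the main model. With the slide as a block 1 endothelial marker was lower with 1,5-naphthalenediol. The summed level of the 2 tested bile duct markers, of 7 looked for, was -0.71 to -0.60 in DMSO, -1.08 to -0.96 with 2,7-naphthalenediol, -0.94 to -0.90 with 1,5-naphthalenediol, -1.10 to -0.83 with 1-naphthol and -0.67 to -0.61 with naphthalene. Over all 15 arrays the summed level of the tested markers ran from -2.33 to -1.74 for stellate cells (4 tested of 8), -4.03 to -3.47 for macrophages (2 of 8) and 0.76 to 1.14 for endothelium (2 of 8), each compound overlapping DMSO. For lymphocytes (2 of 8) it ran from -4.26 to -3.79, and the arrays of 2,7-naphthalenediol, at -4.26 to -4.15, lay below those of DMSO, at -4.13 to -3.79. The part of these markers in the results was not tested. Between 57.4% and 61.0% of gene spots were well above background on each array.

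With 1,5-naphthalenediol, 13 of the 31 genes fell and 1 rose against DMSO. Of all genes tested, 12.7% were lower and 9.24% higher in this comparison. The genes that fell were the regulators Atf4, Atf5 and Nupr1, the stress outputs Eif4ebp1 and Vldlr, the synthesis enzymes Asns, Psat1, Phgdh, Mthfd2 and Pck2, and the tRNA synthetases Gars1, Wars1 and Eprs1, while Shmt2 rose. Their sizes ranged from -0.12 for Eprs1 to -0.68 for Vldlr, and the median over the 31 genes was -0.09 against -0.02 over all genes. In the slide block model 14 were called, against 21.9% of all genes, and 10 of the calls held in that model and without any 1 of the 6 arrays: Atf4, Nupr1, Eif4ebp1, Asns, Psat1, Phgdh, Mthfd2, Pck2, Gars1 and Wars1. With normexp background correction 11 fell and 3 rose, against 1685 lower and 2120 higher of all 19803 genes.

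With naphthalene, 9 of the 31 genes fell (Slc3a2, Atf4, Cth, Psat1, Mars1, Mthfd2, Tars1, Eprs1 and Gars1) and 2 rose (Ddit4 and Ppp1r15a). Of all genes, 12.8% were lower and 12.1% higher, and the median of the 31 genes was -0.11 against 0.00 over all genes. With the slide as a block 0 of the 31 were called, as were 0.631% of all genes in place of 24.8%. The count of 11 fell to 5 without DMSO 1, 7 without DMSO 2, 6 without DMSO 3, 4 without naphthalene 1 and 6 without naphthalene 2. Other scalings split the calls differently, with 2 higher and 5 lower under quantile normalization and 1 higher and 18 lower relative to the array median. Over all 19803 genes, 2407 were higher and 2156 lower under the former and 1395 and 5501 under the latter. In the main model these were 2394 and 2525.

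With 1-naphthol, Nupr1, Slc3a2, Gars1 and Wars1 fell and Ddit4 and Shmt2 rose. Of all genes 9.49% were lower and 10.7% higher, so 6 of 31 was close to the 20.2% called over the array. Under the slide block 0 of the 31 were called, against 1.16% of all genes. The count was 3 without DMSO 3 or 1-naphthol 2 and 2 without 1-naphthol 3. Calls were split as 1 higher and 5 lower relative to the array median and as 4 higher and 3 lower with normexp. Over all 19803 genes, 1488 were higher and 2835 lower under the former and 2492 and 1805 under the latter.

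With 2,7-naphthalenediol, Slc7a5 and Ppp1r15a rose and Gars1 fell. Of all genes 5.83% were higher and 5.48% lower, so the 3 calls were near the 11.3% of the array, and the median of the 31 genes was 0.01. In the slide block model, where 15.6% of all genes were called, the same 3 genes were called together with Trib3, Chac1 and Ddit4, all 3 higher. The count was 1 without DMSO 1, 2 or 3 or without 2,7-naphthalenediol 2. Calls were split as 5 higher and 0 lower under quantile normalization, 2 and 2 relative to the array median, and 4 and 0 with normexp. Over all 19803 genes, 1359 were higher and 689 lower, 808 and 2370, and 1112 and 687 in that order. The 4 comparisons share the DMSO arrays, so they are given side by side and their likeness is not tested.

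**Figure D1:**
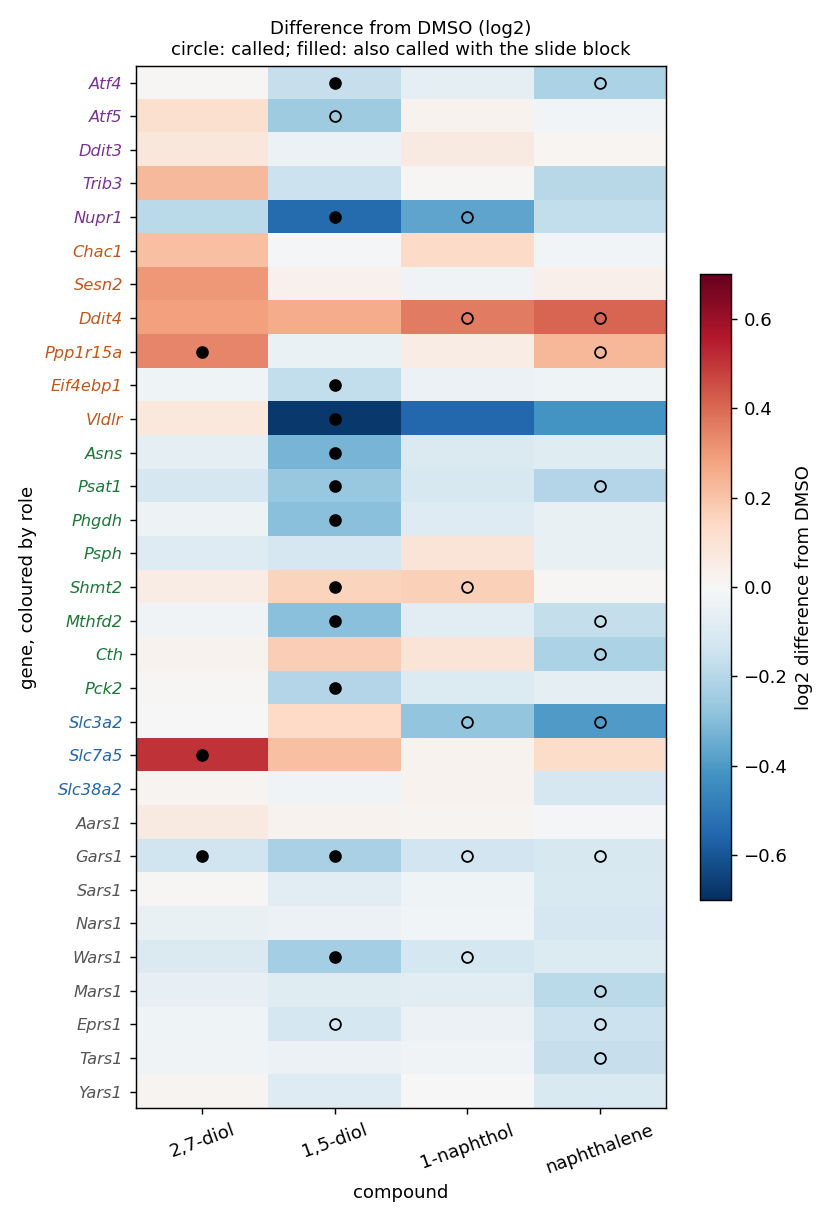
Log2 difference from DMSO of the 31 tested genes (rows, names coloured by role) for each compound (columns), blue for lower and red for higher. Open circles mark calls of the model without the slide, and filled circles mark those that were also called with the slide as a block, which for 1-naphthol and naphthalene is 0 genes.

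Atf4 itself lay at 4.28, 4.26 and 4.28 in DMSO, at 4.31, 4.27 and 4.25 with 2,7-naphthalenediol, at 4.14, 4.13 and 4.05 with 1,5-naphthalenediol, at 4.22, 4.18 and 4.21 with 1-naphthol and at 4.05, 4.10 and 3.99 with naphthalene. The DMSO and 2,7-naphthalenediol arrays were interleaved, and all arrays of the other 3 compounds lay below them. Atf4 fell by 0.16 ± 0.0387 (adjusted p = 0.0117) with 1,5-naphthalenediol and by 0.22 ± 0.0387 (adjusted p = 0.00365) with naphthalene, while the difference was 0.01 ± 0.0387 (adjusted p = 0.927) with 2,7-naphthalenediol and -0.06 ± 0.0387 (adjusted p = 0.253) with 1-naphthol. The fall with 1,5-naphthalenediol was -0.16 in the main model and -0.13 with the slide as a block (adjusted p = 0.0356), whereas with naphthalene it was -0.14 (adjusted p = 0.255).

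Nupr1, a small chromatin protein induced by stress, lay at 5.00, 4.89 and 4.95 in DMSO, at 4.84, 4.70 and 4.73 with 2,7-naphthalenediol, at 4.37, 4.50 and 4.35 with 1,5-naphthalenediol, at 4.63, 4.55 and 4.55 with 1-naphthol and at 4.81, 4.85 and 4.66 with naphthalene. Every treated array was below every DMSO array, with 1,5-naphthalenediol the lowest group and 1-naphthol next. It fell by 0.54 ± 0.061 (adjusted p = 0.000109) with 1,5-naphthalenediol, a level 1.45-fold below DMSO, and by 0.37 ± 0.061 (adjusted p = 0.00323) with 1-naphthol. With 2,7-naphthalenediol the difference was -0.19 ± 0.061 (adjusted p = 0.0661) and with naphthalene -0.17 ± 0.061 (adjusted p = 0.0561), neither called. With the slide as a block the value was -0.51 (adjusted p = 0.000594) for 1,5-naphthalenediol and -0.28 (adjusted p = 0.204) for 1-naphthol. The second probe of Nupr1 gave differences of -0.55 with 1,5-naphthalenediol and -0.38 with 1-naphthol, both called in a fit over probes, and -0.19 with naphthalene (adjusted p = 0.0459).

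Trib3, a pseudokinase that is induced by ATF4 and restrains it, lay at 0.43, 0.39 and 0.46 in DMSO, at 0.71, 0.67 and 0.58 with 2,7-naphthalenediol, at 0.43, 0.31 and 0.10 with 1,5-naphthalenediol, at 0.48, 0.41 and 0.42 with 1-naphthol and at 0.35, 0.19 and 0.17 with naphthalene. All 3 arrays of 2,7-naphthalenediol were above all others, and those of naphthalene were below DMSO. The difference from DMSO was 0.22 ± 0.0752 (adjusted p = 0.0721) with 2,7-naphthalenediol, not called here and called with the slide as a block (adjusted p = 0.0246). It was -0.15 ± 0.0752 (adjusted p = 0.179) with 1,5-naphthalenediol, whose array on slide 2 was its lowest, 0.01 ± 0.0752 (adjusted p = 0.939) with 1-naphthol and -0.19 ± 0.0752 (adjusted p = 0.0802) with naphthalene.

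Atf5, a sister factor of ATF4 under the same translational control, lay at 5.58, 5.46 and 5.56 in DMSO, at 5.72, 5.67 and 5.55 with 2,7-naphthalenediol, at 5.37, 5.32 and 5.16 with 1,5-naphthalenediol, at 5.61, 5.52 and 5.54 with 1-naphthol and at 5.59, 5.51 and 5.45 with naphthalene. Its 1,5-naphthalenediol arrays were below all others, and the remaining groups overlapped. It fell by 0.25 ± 0.0653 (adjusted p = 0.0179) with 1,5-naphthalenediol, a call that ended without DMSO 1 (adjusted p = 0.0612), DMSO 3 (0.0593) or 1,5-naphthalenediol 3 (0.0533) and with the slide as a block (adjusted p = 0.0533).

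Ddit3, which encodes the death-linked factor CHOP, lay at 2.56, 2.55 and 2.45 in DMSO, at 2.65, 2.35 and 2.80 with 2,7-naphthalenediol, at 2.44, 2.33 and 2.67 with 1,5-naphthalenediol, at 2.80, 2.47 and 2.48 with 1-naphthol and at 2.46, 2.59 and 2.56 with naphthalene. The groups overlapped in all 10 comparisons and no difference was called. The 95% interval of the difference from DMSO was -0.18 to 0.34 with 2,7-naphthalenediol, -0.30 to 0.22 with 1,5-naphthalenediol, -0.20 to 0.33 with 1-naphthol and -0.25 to 0.28 with naphthalene.

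**Figure D2:**
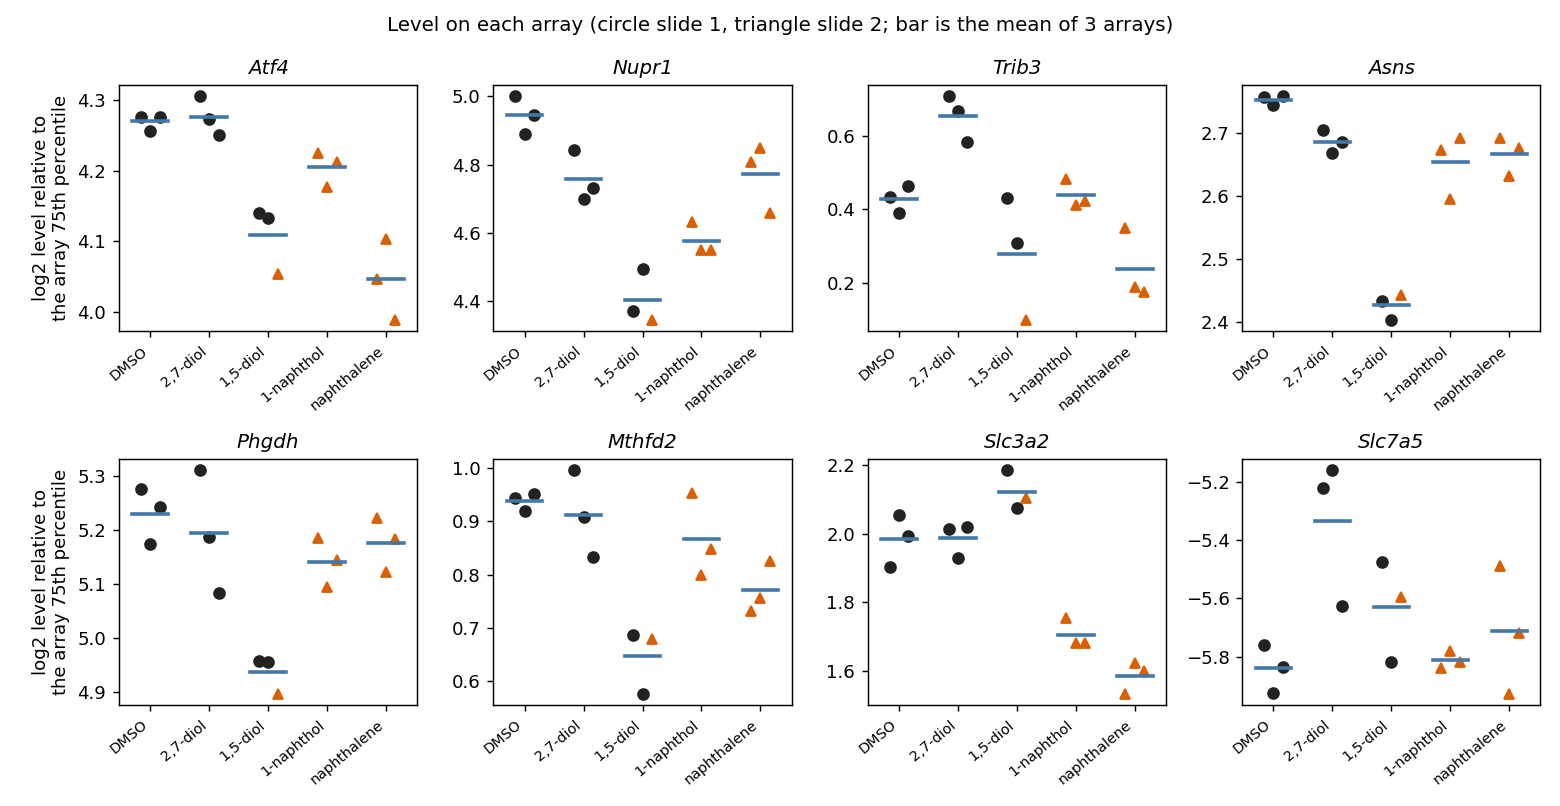
Level of 8 genes on each array (log2 relative to the array's 75th percentile; y axes differ between panels), by group on the x axis, with circles for slide 1, triangles for slide 2 and a bar at the mean of 3 arrays. Asns, Phgdh, Mthfd2 and Nupr1 lie lowest with 1,5-naphthalenediol on both slides, and Slc3a2 lies low with 1-naphthol and naphthalene.

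The C/EBP-ATF element to which ATF4 binds was looked for as TGATGNAA on both strands in RefSeq promoters of build GRCr8, from 250 bases before to 50 bases after each gene's start. It was present in 1332 of 33469 promoters (3.98%) and in 10 of the 31 member genes that have an entry. Those 10 were Trib3, Nupr1, Chac1, Pck2, Slc7a1, Aars1, Nars1, Mars1, Tars1 and Yars1. Such a match is a description of letters and not a shown binding site. The members were listed as genes of the ATF4 response, and they were counted by gene while all promoters were counted by entry. The shares of members and of all promoters are therefore not a test. The following stretches, read 5′ to 3′ along the gene's strand with the match in capitals, are those of 3 stress genes that differed between the diols (Trib3, Nupr1 and Chac1), of a synthesis gene that fell with 1,5-naphthalenediol (Pck2) and of 2 tRNA synthetases that fell with naphthalene (Mars1 and Tars1). All 6 show the element on the opposite strand, so it reads as its reverse complement.
Trib3: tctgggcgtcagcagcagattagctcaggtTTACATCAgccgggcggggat
Nupr1: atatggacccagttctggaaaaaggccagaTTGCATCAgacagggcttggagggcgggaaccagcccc
Chac1: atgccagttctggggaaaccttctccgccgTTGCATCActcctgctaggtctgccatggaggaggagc
Pck2: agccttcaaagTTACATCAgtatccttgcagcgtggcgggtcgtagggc
Mars1: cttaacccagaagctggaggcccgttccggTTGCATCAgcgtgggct
Tars1: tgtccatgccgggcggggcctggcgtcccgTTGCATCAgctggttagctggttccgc

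These stretches lie at chr3:161275534-161275584 (- strand) for Trib3, chr1:190645919-190645986 (- strand) for Nupr1, chr3:126795934-126796001 (+ strand) for Chac1, chr15:32997603-32997651 (+ strand) for Pck2, chr7:65023754-65023800 (- strand) for Mars1 and chr2:62114803-62114859 (- strand) for Tars1. The first base of the match was at position -21 of Trib3, -55 of Nupr1, -167 of Chac1, -239 of Pck2, -17 of Mars1 and -27 of Tars1, counted from the gene's start. Nupr1 and Chac1 share the letters TTGCATCA with Mars1 and Tars1, while Trib3 and Pck2 carry TTACATCA. With 1,5-naphthalenediol, 2 of the 9 tested genes with a match fell and 0 rose, against 9 that fell and 1 that rose of 20 without one, with medians of -0.09 and -0.09. With naphthalene, 2 of 9 with a match fell and 0 rose, against 6 lower and 2 higher of 20 without. Over all genes, 12.7% were lower and 9.24% higher with 1,5-naphthalenediol, and 12.8% and 12.1% with naphthalene. With the slide as a block 0 of the 31 tested genes were called with naphthalene. Asns, Phgdh, Psat1 and Mthfd2, which fell with 1,5-naphthalenediol, had no match in this window.

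Among the stress outputs, Chac1, an enzyme that degrades glutathione, lay at -2.32, -2.23 and -2.24 in DMSO, at -1.99, -2.15 and -2.01 with 2,7-naphthalenediol, at -2.25, -2.24 and -2.34 with 1,5-naphthalenediol, at -2.09, -2.26 and -2.04 with 1-naphthol and at -2.24, -2.25 and -2.36 with naphthalene. Its 2,7-naphthalenediol arrays were all above DMSO. The difference was 0.21 ± 0.0634 (adjusted p = 0.0508) there, not called here and called with the slide as a block (adjusted p = 0.0444), and -0.01, 0.13 and -0.02 with 1,5-naphthalenediol, 1-naphthol and naphthalene, none of these called.

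Ppp1r15a encodes GADD34, the subunit that brings a phosphatase to phosphorylated eIF2 and so ends the response. It lay at 1.59, 1.72 and 1.73 in DMSO, at 2.05, 2.03 and 1.98 with 2,7-naphthalenediol, at 1.66, 1.56 and 1.67 with 1,5-naphthalenediol, at 1.77, 1.70 and 1.72 with 1-naphthol and at 1.98, 1.79 and 1.97 with naphthalene. The 2,7-naphthalenediol arrays were the highest, and those of naphthalene also lay above all DMSO arrays. Ppp1r15a rose by 0.34 ± 0.0586 (adjusted p = 0.00583) with 2,7-naphthalenediol, a call that held without any 1 of the 6 arrays and with the slide as a block. With naphthalene it rose by 0.23 ± 0.0586 (adjusted p = 0.0153), a call that ended without DMSO 1 (adjusted p = 0.0536) or naphthalene 1 (0.0573) and with the slide as a block (adjusted p = 0.392).

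Ddit4, which encodes the mTORC1 inhibitor REDD1, lay at -2.37, -2.52 and -2.45 in DMSO, at -2.13, -2.09 and -2.26 with 2,7-naphthalenediol, at -2.12, -2.10 and -2.34 with 1,5-naphthalenediol, at -2.13, -2.03 and -2.09 with 1-naphthol and at -1.95, -1.91 and -2.25 with naphthalene. All 12 treated arrays lay above the 3 DMSO arrays. Ddit4 rose by 0.41 ± 0.0908 (adjusted p = 0.00936) with naphthalene and by 0.36 ± 0.0908 (adjusted p = 0.0181) with 1-naphthol, and the difference was 0.29 ± 0.0908 (adjusted p = 0.0588) with 2,7-naphthalenediol and 0.26 ± 0.0908 (adjusted p = 0.0592) with 1,5-naphthalenediol. Under the slide block the 2,7-naphthalenediol and 1,5-naphthalenediol differences were called (adjusted p = 0.0378 and 0.0241), while 1-naphthol gave 0.59 (adjusted p = 0.0745) and naphthalene 0.64 (adjusted p = 0.0614). The 1-naphthol call ended without DMSO 2 (adjusted p = 0.062), DMSO 3 (0.0556), 1-naphthol 2 (0.0633) or 1-naphthol 3 (0.0547). A second, dimmer probe of Ddit4 gave differences of 0.41, 0.26, 0.41 and 0.22 in the same order of compounds as the arrays above, none of them called in the fit over probes.

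Sesn2, a leucine sensor that also restrains mTORC1, lay at -3.34, -3.31 and -3.26 in DMSO, at -2.90, -3.07 and -3.03 with 2,7-naphthalenediol, at -3.03, -3.28 and -3.51 with 1,5-naphthalenediol, at -3.37, -3.36 and -3.25 with 1-naphthol and at -3.04, -3.40 and -3.37 with naphthalene. The 2,7-naphthalenediol arrays lay above all DMSO arrays, but the difference of 0.30 ± 0.114 (adjusted p = 0.101) was not called, and its interval was 0.05 to 0.55. Eif4ebp1, which encodes the translation inhibitor 4E-BP1, fell by 0.17 ± 0.0419 (adjusted p = 0.0114) with 1,5-naphthalenediol and was -0.03, -0.04 and -0.03 with 2,7-naphthalenediol, 1-naphthol and naphthalene, none of these called.

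Vldlr, a lipoprotein receptor, lay at -5.81, -5.75 and -5.98 in DMSO, at -5.61, -5.53 and -6.19 with 2,7-naphthalenediol, at -6.37, -7.05 and -6.15 with 1,5-naphthalenediol, at -6.24, -6.39 and -6.57 with 1-naphthol and at -6.25, -6.33 and -6.22 with naphthalene. Levels with 1,5-naphthalenediol were below all DMSO arrays, but 1 of the 3, the lowest, was not well above background. In the group means Vldlr was at least 1.52-fold lower with 1,5-naphthalenediol (measured difference -0.68 ± 0.21 (adjusted p = 0.0377)). This bound allows for the dim array only and leaves out the spread between arrays. The call ended without DMSO 1 (adjusted p = 0.0913), DMSO 2 (0.101), DMSO 3 (0.0615), 1,5-naphthalenediol 1 (0.0537) or 1,5-naphthalenediol 2 (0.118). Differences of -0.55 ± 0.21 (adjusted p = 0.0822) with 1-naphthol and -0.42 ± 0.21 (adjusted p = 0.161) with naphthalene were not called.

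Of the 8 genes of amino acid synthesis, most of them in the serine, glycine and asparagine branch, 5 fell and 1 rose with 1,5-naphthalenediol. Over all genes 12.7% were lower and 9.24% higher in this comparison. With the slide as a block 6 of the 8 were called lower and 1 higher. Asns, which makes asparagine from aspartate and glutamine, lay at 2.76, 2.74 and 2.76 in DMSO, at 2.71, 2.67 and 2.69 with 2,7-naphthalenediol, at 2.43, 2.40 and 2.44 with 1,5-naphthalenediol, at 2.67, 2.60 and 2.69 with 1-naphthol and at 2.69, 2.63 and 2.68 with naphthalene. The 1,5-naphthalenediol arrays were the lowest on both slides, and every treated array lay below every DMSO array. Asns fell by 0.33 ± 0.0346 (adjusted p = 7.26e-05) with 1,5-naphthalenediol, a level 1.25-fold below DMSO, and by a like amount with the slide as a block (-0.33, adjusted p = 0.000275). The differences of -0.07 ± 0.0346 (adjusted p = 0.218) with 2,7-naphthalenediol, -0.10 ± 0.0346 (adjusted p = 0.0611) with 1-naphthol and -0.09 ± 0.0346 (adjusted p = 0.0852) with naphthalene were not called. A second probe of Asns gave -0.28 with 1,5-naphthalenediol (adjusted p = 0.00097 in the fit over probes).

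Phgdh, which commits glycolytic carbon to serine, lay at 5.28, 5.17 and 5.24 in DMSO, at 5.31, 5.19 and 5.08 with 2,7-naphthalenediol, at 4.96, 4.96 and 4.90 with 1,5-naphthalenediol, at 5.18, 5.09 and 5.15 with 1-naphthol and at 5.22, 5.12 and 5.18 with naphthalene. All 1,5-naphthalenediol arrays lay below the 12 others. It fell by 0.29 ± 0.0555 (adjusted p = 0.00308) with 1,5-naphthalenediol, where its second probe gave -0.38 (adjusted p = 0.00205). That second probe was also lower with naphthalene, by -0.22 (adjusted p = 0.0297), where the brighter probe gave -0.05 ± 0.0555 (adjusted p = 0.499), so the probes disagree for naphthalene.

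Psat1, the transaminase of the next step, lay at 3.45, 3.27 and 3.36 in DMSO, at 3.34, 3.19 and 3.19 with 2,7-naphthalenediol, at 3.10, 3.14 and 3.04 with 1,5-naphthalenediol, at 3.29, 3.20 and 3.25 with 1-naphthol and at 3.15, 3.12 and 3.18 with naphthalene. The 1,5-naphthalenediol arrays had the lowest mean, and like those of naphthalene they lay below all DMSO arrays. Psat1 fell by 0.26 ± 0.055 (adjusted p = 0.00542) with 1,5-naphthalenediol and by 0.21 ± 0.055 (adjusted p = 0.0196) with naphthalene. The naphthalene call ended without DMSO 1 (adjusted p = 0.0682), DMSO 3 (0.0586), naphthalene 1 (0.0522) or naphthalene 2 (0.0589) and with the slide as a block (adjusted p = 0.496). The second probe of Psat1 gave -0.26 with 1,5-naphthalenediol and -0.19 with naphthalene, neither called (adjusted p = 0.138 and 0.269).

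Psph, which completes serine synthesis, lay at -0.42, -0.50 and -0.44 in DMSO, at -0.54, -0.51 and -0.59 with 2,7-naphthalenediol, at -0.66, -0.63 and -0.42 with 1,5-naphthalenediol, at -0.33, -0.40 and -0.36 with 1-naphthol and at -0.55, -0.48 and -0.48 with naphthalene. The 1-naphthol arrays were above all DMSO arrays and those of 2,7-naphthalenediol below them, and no difference from DMSO was called. The interval of the difference was -0.24 to 0.01 with 1,5-naphthalenediol and -0.03 to 0.21 with 1-naphthol. In the slide block model Psph was called lower with 1,5-naphthalenediol (-0.19, adjusted p = 0.00966), its array on slide 2 being the highest of the 3.

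Mthfd2, a mitochondrial folate enzyme that carries carbon units from serine, lay at 0.94, 0.92 and 0.95 in DMSO, at 1.00, 0.91 and 0.83 with 2,7-naphthalenediol, at 0.69, 0.57 and 0.68 with 1,5-naphthalenediol, at 0.95, 0.80 and 0.85 with 1-naphthol and at 0.73, 0.75 and 0.83 with naphthalene. Levels with 1,5-naphthalenediol were below all others, and those with naphthalene were below all DMSO arrays. Mthfd2 fell by 0.29 ± 0.0535 (adjusted p = 0.00258) with 1,5-naphthalenediol, where its second probe gave -0.33 (adjusted p = 0.02). With naphthalene it fell by 0.17 ± 0.0535 (adjusted p = 0.0396) and its second probe by -0.43 (adjusted p = 0.00686). The naphthalene call of the brighter probe ended without DMSO 1 (adjusted p = 0.0878), DMSO 2 (0.071), DMSO 3 (0.107), naphthalene 1 (0.115) or naphthalene 2 (0.098) and with the slide as a block (adjusted p = 0.252).

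Shmt2, the mitochondrial enzyme that splits serine into glycine, went the other way and lay at 1.92, 1.89 and 1.85 in DMSO, at 1.96, 1.94 and 1.93 with 2,7-naphthalenediol, at 2.05, 2.06 and 2.03 with 1,5-naphthalenediol, at 2.09, 2.02 and 2.06 with 1-naphthol and at 1.98, 1.86 and 1.85 with naphthalene. All arrays of 1,5-naphthalenediol and 1-naphthol were above DMSO. Shmt2 rose by 0.16 ± 0.0399 (adjusted p = 0.0165) and 0.16 ± 0.0399 (adjusted p = 0.0157) respectively, and was 0.05 ± 0.0399 (adjusted p = 0.416) with 2,7-naphthalenediol and 0.01 ± 0.0399 (adjusted p = 0.901) with naphthalene. The call ended without DMSO 3 (adjusted p = 0.0672) for 1,5-naphthalenediol. For 1-naphthol it ended without DMSO 3 (adjusted p = 0.0641), 1-naphthol 1 (0.0546) or 1-naphthol 3 (0.0529), and with the slide as a block (adjusted p = 0.21).

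Cth, which makes cysteine from cystathionine, lay at 0.82, 0.90 and 0.83 in DMSO, at 0.91, 0.76 and 0.94 with 2,7-naphthalenediol, at 1.07, 1.03 and 0.96 with 1,5-naphthalenediol, at 1.03, 0.96 and 0.82 with 1-naphthol and at 0.57, 0.58 and 0.73 with naphthalene. The naphthalene arrays were below all 12 others. It fell by 0.22 ± 0.0657 (adjusted p = 0.0298) with naphthalene, a call that ended without DMSO 1 (adjusted p = 0.0538), DMSO 2 (0.0902), DMSO 3 (0.0668), naphthalene 1 (0.0965) or naphthalene 2 (0.0892) and with the slide as a block (adjusted p = 0.561). With 1,5-naphthalenediol the arrays lay above DMSO, at a difference of 0.17 ± 0.0657 (adjusted p = 0.0845). Pck2, the mitochondrial enzyme that makes phosphoenolpyruvate, fell by 0.20 ± 0.0446 (adjusted p = 0.00731) with 1,5-naphthalenediol and was 0.01 ± 0.0446 (adjusted p = 0.901), -0.09 ± 0.0446 (adjusted p = 0.153) and -0.06 ± 0.0446 (adjusted p = 0.307) with the other compounds.

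Of the transporters, Slc3a2 encodes the heavy chain 4F2hc that carries Slc7a5 and Slc7a11 to the membrane. It lay at 1.90, 2.05 and 1.99 in DMSO, at 2.01, 1.93 and 2.02 with 2,7-naphthalenediol, at 2.19, 2.07 and 2.10 with 1,5-naphthalenediol, at 1.75, 1.68 and 1.68 with 1-naphthol and at 1.53, 1.62 and 1.60 with naphthalene. All arrays of 1-naphthol and naphthalene were below all those of DMSO and the diols, with naphthalene the lowest, while DMSO and 2,7-naphthalenediol overlapped. Slc3a2 fell by 0.40 ± 0.0495 (adjusted p = 0.00131) with naphthalene and by 0.28 ± 0.0495 (adjusted p = 0.00422) with 1-naphthol, and both calls held without any 1 of the 6 arrays. With the slide as a block the values were -0.37 (adjusted p = 0.0705) and -0.25 (adjusted p = 0.174), so neither was called. The array of 1,5-naphthalenediol on slide 2, at 2.10, lay with its other arrays and above every array of 1-naphthol and naphthalene on that slide. It is 1 array, and the cause of the difference was not tested.

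Slc7a5, the light chain LAT1 that imports large neutral amino acids, lay at -5.76, -5.92 and -5.83 in DMSO, at -5.22, -5.16 and -5.63 with 2,7-naphthalenediol, at -5.47, -5.82 and -5.60 with 1,5-naphthalenediol, at -5.84, -5.78 and -5.82 with 1-naphthol and at -5.49, -5.93 and -5.72 with naphthalene. The 2,7-naphthalenediol arrays were above DMSO, though the third lay within the range of 1,5-naphthalenediol. The probe of Slc7a5 was dim, like that of Vldlr, though well above background on all 15 arrays. Slc7a5 rose by 0.50 ± 0.132 (adjusted p = 0.0324) with 2,7-naphthalenediol. The call ended without DMSO 1 (adjusted p = 0.0583), DMSO 2 (0.0824), DMSO 3 (0.0875), 2,7-naphthalenediol 1 (0.082) or 2,7-naphthalenediol 2 (0.12). Slc38a2, the glutamine and alanine importer SNAT2, was not called in any comparison with DMSO, with intervals of -0.09 to 0.12, -0.13 to 0.08, -0.08 to 0.13 and -0.22 to -0.02 in the order of the compounds above.

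The aminoacyl-tRNA synthetases, which load tRNAs with their amino acids, moved by small amounts: of 9, those that fell numbered 3 with 1,5-naphthalenediol, 4 with naphthalene, 2 with 1-naphthol and 1 with 2,7-naphthalenediol, and 0 rose with any compound. Over all genes the share that was lower was 12.7%, 12.8%, 9.49% and 5.48% in that order. Gars1, which charges tRNA with glycine, lay at 5.20, 5.13 and 5.13 in DMSO, at 5.04, 5.04 and 4.98 with 2,7-naphthalenediol, at 4.93, 4.93 and 4.92 with 1,5-naphthalenediol, at 5.07, 4.99 and 5.01 with 1-naphthol and at 5.04, 5.04 and 5.06 with naphthalene. All 12 treated arrays lay below DMSO. Gars1 fell by 0.23 ± 0.0351 (adjusted p = 0.000882) with 1,5-naphthalenediol, 0.14 ± 0.0351 (adjusted p = 0.0302) with 2,7-naphthalenediol, 0.14 ± 0.0351 (adjusted p = 0.0203) with 1-naphthol and 0.11 ± 0.0351 (adjusted p = 0.0397) with naphthalene. The call with 2,7-naphthalenediol ended without DMSO 1 (adjusted p = 0.0992), DMSO 2 (0.0513), DMSO 3 (0.065), 2,7-naphthalenediol 2 (0.0697) or 2,7-naphthalenediol 3 (0.105). The call with 1-naphthol ended without DMSO 1 (adjusted p = 0.0669), 1-naphthol 2 (0.0781) or 1-naphthol 3 (0.0716), and that with naphthalene without any 1 of the 6 arrays (adjusted p from 0.0533 to 0.13). Under the slide block the last 2 were not called (adjusted p = 0.318 and 0.406). The second probe of Gars1 gave -0.24 with 1,5-naphthalenediol (adjusted p = 0.0624) and was not called with any compound.

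Wars1, the tryptophan enzyme, which interferon also induces, lay at 3.84, 3.83 and 3.86 in DMSO, at 3.78, 3.75 and 3.69 with 2,7-naphthalenediol, at 3.60, 3.65 and 3.57 with 1,5-naphthalenediol, at 3.74, 3.70 and 3.71 with 1-naphthol and at 3.74, 3.72 and 3.78 with naphthalene. Again all 12 treated arrays were below DMSO. Wars1 fell by 0.24 ± 0.0362 (adjusted p = 0.000778) with 1,5-naphthalenediol and by 0.13 ± 0.0362 (adjusted p = 0.0314) with 1-naphthol, the latter call ending without any 1 of the 6 arrays (adjusted p from 0.0528 to 0.102) and with the slide as a block (adjusted p = 0.59). With naphthalene the difference was -0.10 ± 0.0362 (adjusted p = 0.07). The second probe of Wars1 gave -0.24 with 1,5-naphthalenediol (adjusted p = 0.00211), -0.16 with 1-naphthol (adjusted p = 0.024) and -0.17 with naphthalene (adjusted p = 0.0172), so the probes disagree on the call for naphthalene.

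Mars1, the methionine enzyme, lay at 2.57, 2.57 and 2.56 in DMSO, at 2.49, 2.54 and 2.49 with 2,7-naphthalenediol, at 2.51, 2.52 and 2.41 with 1,5-naphthalenediol, at 2.51, 2.47 and 2.50 with 1-naphthol and at 2.42, 2.39 and 2.32 with naphthalene. The naphthalene arrays were below DMSO without overlap. Mars1 fell by 0.19 ± 0.0401 (adjusted p = 0.00781) with naphthalene, and with the slide as a block the value was -0.08 (adjusted p = 0.507). Eprs1, which charges glutamate and proline tRNAs, fell by 0.15 ± 0.0365 (adjusted p = 0.0143) with naphthalene and by 0.12 ± 0.0365 (adjusted p = 0.0315) with 1,5-naphthalenediol. Its calls ended without naphthalene 1 (adjusted p = 0.0518) for naphthalene, and without any 1 of the 6 arrays (adjusted p from 0.0507 to 0.103) for 1,5-naphthalenediol. In the slide block model neither Eprs1 call held (adjusted p = 0.318 and 0.0655). Tars1, the threonine enzyme, fell by 0.16 ± 0.054 (adjusted p = 0.0468) with naphthalene, a call that ended without DMSO 1 (adjusted p = 0.0943), DMSO 2 (0.0653), DMSO 3 (0.143), naphthalene 1 (0.141) or naphthalene 2 (0.0632) and with the slide as a block (adjusted p = 0.317). Aars1, Sars1, Nars1 and Yars1, which charge alanine, serine, asparagine and tyrosine, were not called with any compound, their differences lying between -0.12 (Nars1 with naphthalene) and 0.07 (Aars1 with 2,7-naphthalenediol).

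**Figure D3:**
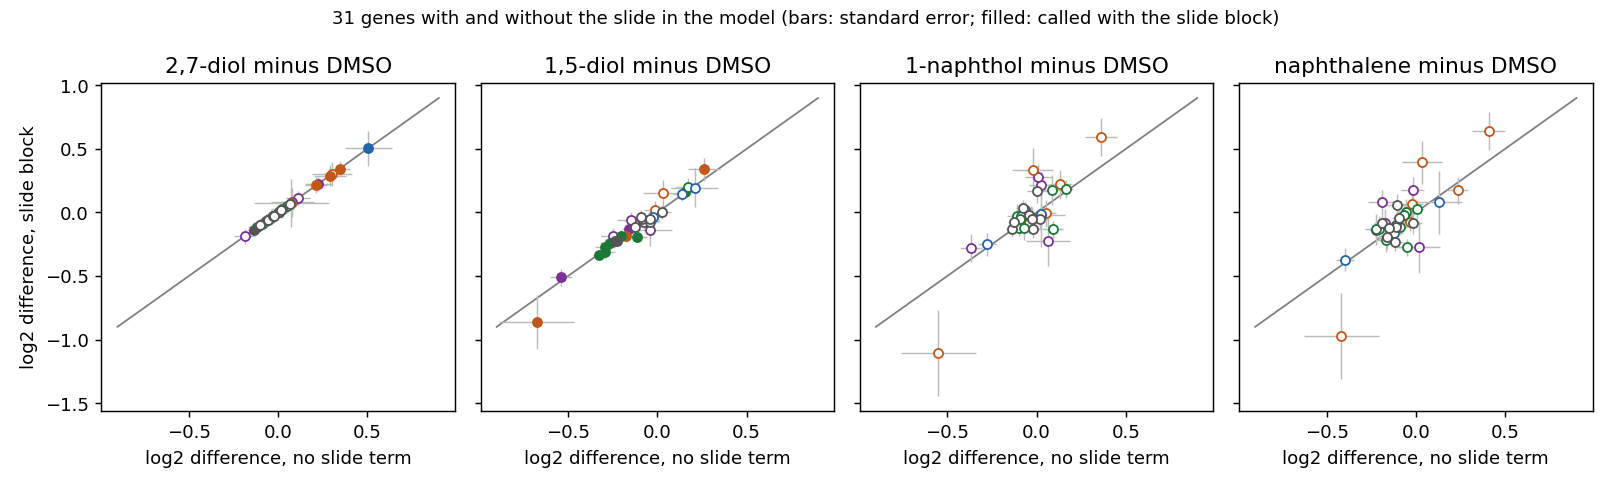
Log2 difference from DMSO of the 31 genes in the model without the slide (x axis) and with the slide as a block (y axis), 1 panel per compound, points coloured by role, bars for standard errors and filled points for calls in the slide model. Values are the same for 2,7-naphthalenediol, close for 1,5-naphthalenediol, and scatter with wider bars for 1-naphthol and naphthalene, where 0 points are filled.

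The compounds were then compared with each other at the same dose and time, in 6 pairs. Naphthalene is a pair of fused aromatic rings, 1-naphthol carries a single hydroxyl group, and each diol carries a hydroxyl group on each ring, so the diols differ only in where these groups sit. Between the diols, 13 of the 31 genes were lower with 1,5- than with 2,7-naphthalenediol and 0 were higher. Over all genes, 7.43% were lower and 6.83% higher, and the median of the 31 genes was -0.14 against 0.00 over all genes. Among these 13 the differences of largest size were in Vldlr, at least 1.6-fold lower (-0.75 ± 0.21 (adjusted p = 0.0328)), Ppp1r15a (-0.39 ± 0.0586 (adjusted p = 0.00122)), Trib3 (-0.37 ± 0.0752 (adjusted p = 0.00651)), Atf5 (-0.36 ± 0.0653 (adjusted p = 0.00364)), Nupr1 (-0.35 ± 0.061 (adjusted p = 0.00293)) and Mthfd2 (-0.27 ± 0.0535 (adjusted p = 0.00651)). Asns was lower by 0.26, Phgdh by 0.26, Chac1 by 0.22, Pck2 by 0.21, Atf4 by 0.17, Eif4ebp1 by 0.14 and Wars1 by 0.14. The bound for Vldlr again allows for the dim array only and leaves out the spread between arrays. For all of these but Vldlr the arrays of the diols did not overlap. Over the 31 genes, called or not, 18 had diol arrays that did not overlap. The share over all genes was not computed, so this count is not a result about these genes.

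With the slide as a block, where 10.4% of all genes were called, 10 of these 13 were called, Chac1, Eif4ebp1 and Wars1 being lost (adjusted p = 0.11, 0.0536 and 0.0777). Atf5, Trib3, Nupr1, Ppp1r15a, Asns, Phgdh, Mthfd2 and Pck2 held there and without any 1 of the 6 arrays. The count was 8 without 2,7-naphthalenediol 1, and 6 on slide 1 alone, in a fit of its 5 diol arrays together with the DMSO arrays. The Atf4 call ended without 2,7-naphthalenediol 1 (adjusted p = 0.0521), the Vldlr call without 2,7-naphthalenediol 1 (adjusted p = 0.106), 2,7-naphthalenediol 2 (0.121) or 1,5-naphthalenediol 2 (0.0947), the Chac1 call without 2,7-naphthalenediol 1 (adjusted p = 0.114), 2,7-naphthalenediol 3 (0.104), 1,5-naphthalenediol 1 (0.0559), 1,5-naphthalenediol 2 (0.0617) or 1,5-naphthalenediol 3 (0.11), the Eif4ebp1 call without 2,7-naphthalenediol 1 (adjusted p = 0.126), 2,7-naphthalenediol 2 (0.1), 1,5-naphthalenediol 1 (0.105), 1,5-naphthalenediol 2 (0.0775) or 1,5-naphthalenediol 3 (0.0536) and the Wars1 call without 2,7-naphthalenediol 1 (adjusted p = 0.0928), 2,7-naphthalenediol 2 (0.077), 1,5-naphthalenediol 1 (0.0595) or 1,5-naphthalenediol 3 (0.0777). The diols did not differ by a call in Ddit3 (interval -0.38 to 0.14), Ddit4 (-0.23 to 0.17), Psat1 (-0.27 to -0.03), Slc7a5 (-0.58 to -0.01) or Slc3a2 (0.03 to 0.24).

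**Figure D4:**
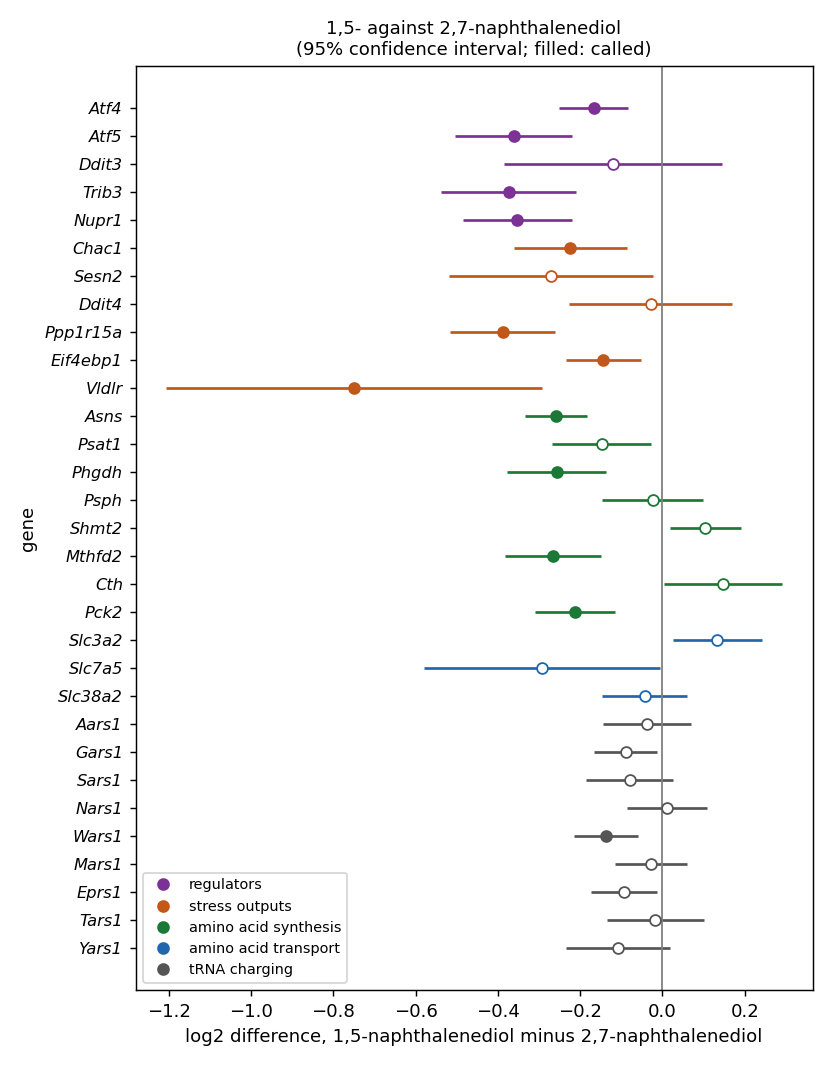
Log2 difference between the diols (1,5-naphthalenediol minus 2,7-naphthalenediol, x axis) for the 31 genes (y axis), with 95% confidence intervals and filled points for called genes, coloured by role. The 13 filled points all lie to the left of 0. Of the 9 tRNA synthetases only Wars1 is filled, their median is -0.08, and 1 lies to the right of 0.

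1-Naphthol and naphthalene, which differ by a hydroxyl group and shared slide 2, differed in 1 of the 31 genes, against 1.14% of all genes higher with 1-naphthol and 1.21% lower. Cth was higher with 1-naphthol (0.31 ± 0.0657 (adjusted p = 0.0318)), a call that ended without 1-naphthol 1 (adjusted p = 0.135), 1-naphthol 2 (0.106), naphthalene 1 (0.0913) or naphthalene 2 (0.104). Among the arrays of slide 2 alone 0 were called. Under the slide block, where 2.87% of all genes were called, Atf4 was called too, higher with 1-naphthol by 0.16 (adjusted p = 0.0417, and 0.0559 without the block). The interval of the difference was -0.09 to 0.06 for Asns, -0.33 to -0.06 for Nupr1, 0.04 to 0.37 for Trib3 and 0.01 to 0.23 for Slc3a2.

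Against 1-naphthol, 1,5-naphthalenediol, which adds a hydroxyl group on the other ring, had Slc3a2 higher (0.42 ± 0.0495 (adjusted p = 0.000575)) and 5 genes lower: Atf5 (-0.27), Asns (-0.23), Mthfd2 (-0.22), Psph (-0.21) and Phgdh (-0.20). Over all genes 3.91% were higher and 5.23% lower, and 1.82% were called with the slide as a block. In that model Slc3a2 (0.40, adjusted p = 0.0223) and Atf5 (-0.40, adjusted p = 0.0293) were called, and Asns was not (-0.21, adjusted p = 0.0577). Slc3a2 and Asns held without any 1 of the 6 arrays. The Atf5 call ended without 1,5-naphthalenediol 2 (adjusted p = 0.0527), 1-naphthol 1 (0.0867), 1-naphthol 2 (0.0555) or 1-naphthol 3 (0.0739), the Mthfd2 call without 1,5-naphthalenediol 1 (adjusted p = 0.0541), 1,5-naphthalenediol 2 (0.103), 1-naphthol 1 (0.0979) or 1-naphthol 3 (0.0747), the Psph call without 1,5-naphthalenediol 1 (adjusted p = 0.153), 1,5-naphthalenediol 2 (0.147), 1-naphthol 1 (0.124), 1-naphthol 2 (0.0834) or 1-naphthol 3 (0.119) and the Phgdh call without any 1 of the 6 arrays (adjusted p from 0.0662 to 0.125). The count of 6 was 3 without 1,5-naphthalenediol 1 or 1-naphthol 2, and 2 without 1,5-naphthalenediol 2, 1-naphthol 1 or 1-naphthol 3. With normexp 2 were higher and 4 lower, against 1049 and 1116 of all 19803 genes.

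Against naphthalene, 1,5-naphthalenediol had 3 genes higher, Slc3a2 (0.54 ± 0.0495 (adjusted p = 3.49e-05)), Cth (0.39 ± 0.0657 (adjusted p = 0.0016)) and Shmt2 (0.15 ± 0.0399 (adjusted p = 0.0204)), and 9 lower. Over all genes 11.1% were higher and 13.2% lower. The lower ones were Nupr1 (-0.37), Ppp1r15a (-0.28), Asns (-0.24), Phgdh (-0.24), Atf5 (-0.23), Eif4ebp1 (-0.15), Wars1 (-0.14), Pck2 (-0.14) and Gars1 (-0.12). Nupr1, Asns and Slc3a2 held with the slide as a block and without any 1 of the 6 arrays, and in the former 4 of the 31 were called, Atf5 being the other, against 8.03% of all genes. Calls ended without 1,5-naphthalenediol 3 (adjusted p = 0.0626), naphthalene 1 (0.0852) or naphthalene 2 (0.0534) for Atf5, without 1,5-naphthalenediol 1 (adjusted p = 0.0546), 1,5-naphthalenediol 2 (0.0621), naphthalene 2 (0.0685) or naphthalene 3 (0.0601) for Shmt2, without 1,5-naphthalenediol 1 (adjusted p = 0.0934), 1,5-naphthalenediol 2 (0.0601), naphthalene 1 (0.0923) or naphthalene 2 (0.0563) for Eif4ebp1, without 1,5-naphthalenediol 1 (adjusted p = 0.0671), 1,5-naphthalenediol 2 (0.0946), 1,5-naphthalenediol 3 (0.0883), naphthalene 1 (0.139) or naphthalene 2 (0.0911) for Pck2 and without 1,5-naphthalenediol 1 (adjusted p = 0.069), 1,5-naphthalenediol 2 (0.0765), naphthalene 1 (0.0583), naphthalene 2 (0.068) or naphthalene 3 (0.0663) for Gars1. The count of 12 was 7 without naphthalene 2. Relative to the array median 5 were higher and 4 lower, and with normexp 6 and 6. Over all 19803 genes, these were 2721 and 1774, and 2528 and 2781.

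2,7-Naphthalenediol shared no slide with 1-naphthol or naphthalene, and with the slide as a block 0 of the 31 genes were called in either comparison, against 0.0555% and 0.0202% of all genes. In the main model it was higher than 1-naphthol in Slc7a5 (0.48 ± 0.132 (adjusted p = 0.0324)), Ppp1r15a (0.29 ± 0.0586 (adjusted p = 0.0113)) and Slc3a2 (0.28 ± 0.0495 (adjusted p = 0.00796)), while 5.06% of all genes were higher and 9.52% lower. The Slc7a5 call ended without 2,7-naphthalenediol 1 (adjusted p = 0.0963), 2,7-naphthalenediol 2 (0.111), 1-naphthol 1 (0.0875), 1-naphthol 2 (0.0772) or 1-naphthol 3 (0.0835). With normexp 5 were higher and 2 lower, against 1224 and 2264 of all 19803 genes. It was higher than naphthalene in 7 genes, against 5.73% of all genes (and 9.66% lower): Trib3 (0.42 ± 0.0752 (adjusted p = 0.00851)), Slc3a2 (0.40 ± 0.0495 (adjusted p = 0.00322)), Cth (0.25), Chac1 (0.23), Atf4 (0.23 ± 0.0387 (adjusted p = 0.00738)), Mars1 (0.13) and Eprs1 (0.12). Trib3, Slc3a2 and Atf4 held without any 1 of the 6 arrays. Calls ended without 2,7-naphthalenediol 1 (adjusted p = 0.0916), 2,7-naphthalenediol 3 (0.0978), naphthalene 2 (0.0556) or naphthalene 3 (0.0851) for Chac1, without 2,7-naphthalenediol 1 (adjusted p = 0.0798), 2,7-naphthalenediol 3 (0.104), naphthalene 1 (0.0819) or naphthalene 2 (0.0833) for Cth, without 2,7-naphthalenediol 1 (adjusted p = 0.0836), 2,7-naphthalenediol 2 (0.13), 2,7-naphthalenediol 3 (0.0942), naphthalene 2 (0.0814) or naphthalene 3 (0.129) for Mars1 and without 2,7-naphthalenediol 1 (adjusted p = 0.131), 2,7-naphthalenediol 2 (0.0767), 2,7-naphthalenediol 3 (0.095), naphthalene 1 (0.125) or naphthalene 2 (0.124) for Eprs1. The count was 3 without 2,7-naphthalenediol 1 or naphthalene 2 and 4 without 2,7-naphthalenediol 3. Slide and compound cannot be told apart in these 2 comparisons except through 1,5-naphthalenediol.

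Genes around the response were described from lists of its inputs, partners and further targets. Of 19 genes of eIF2 kinases and eIF2 control, 3 rose and 2 fell with 2,7-naphthalenediol, 2 and 3 with 1,5-naphthalenediol, 1 and 3 with 1-naphthol, and 1 and 6 with naphthalene. The median difference of the 19 was -0.02, 0.01, -0.03 and -0.10 in the same order of compounds, against -0.03, -0.02, 0.00 and 0.00 over all genes. For this and the following lists, the shares over all genes were 5.83% higher and 5.48% lower with 2,7-naphthalenediol, 9.24% and 12.7% with 1,5-naphthalenediol, 10.7% and 9.49% with 1-naphthol, and 12.1% and 12.8% with naphthalene. Gcn1, the ribosome-bound activator of GCN2, rose with all 4 compounds in that order by 0.29, 0.28, 0.30 and 0.37. Eif2ak4, which encodes GCN2, lay at -1.18, -1.09 and -1.13 in DMSO, at -1.38, -1.29 and -1.30 with 2,7-naphthalenediol, at -1.38, -1.35 and -1.34 with 1,5-naphthalenediol, at -1.30, -1.35 and -1.25 with 1-naphthol and at -1.18, -1.22 and -1.31 with naphthalene. It fell by 0.19 ± 0.0442 (adjusted p = 0.0216) with 2,7-naphthalenediol, 0.22 ± 0.0442 (adjusted p = 0.00439) with 1,5-naphthalenediol and 0.16 ± 0.0442 (adjusted p = 0.0256) with 1-naphthol. Eif2ak2, the kinase PKR that interferon induces, fell by 0.87 ± 0.217 (adjusted p = 0.014) with 1,5-naphthalenediol, 0.91 ± 0.217 (adjusted p = 0.0147) with 1-naphthol and 0.94 ± 0.217 (adjusted p = 0.0112) with naphthalene, and its DMSO arrays lay apart at -0.26, 0.37 and 0.19. With 2,7-naphthalenediol its arrays, at -0.64, -0.71 and -0.49, were also below all DMSO arrays, at a difference of -0.71 ± 0.217 (adjusted p = 0.0534) that was called with the slide as a block (adjusted p = 0.0453). In the slide block model Gcn1, Eif2ak4 and Eif2ak2 were called with 1,5-naphthalenediol, and 0 of the 19 with 1-naphthol or naphthalene.

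Of 13 tested bZIP factors and partners of ATF4, 3 rose and 0 fell with 2,7-naphthalenediol, 3 and 3 with 1,5-naphthalenediol, 4 and 2 with 1-naphthol and 3 and 4 with naphthalene. The median difference of the 13 was 0.16, -0.05, -0.06 and -0.03 in the same order of compounds. Under the slide block 1 was higher and 0 lower with each of 1-naphthol and naphthalene. Cebpb, a partner of ATF4 at composite elements, lay at 1.41, 1.34 and 1.36 in DMSO, at 1.59, 1.59 and 1.51 with 2,7-naphthalenediol, at 1.68, 1.69 and 1.58 with 1,5-naphthalenediol, at 1.62, 1.65 and 1.54 with 1-naphthol and at 1.66, 1.69 and 1.69 with naphthalene. All 12 treated arrays were above DMSO. It rose by 0.19 ± 0.0436 (adjusted p = 0.0183) with 2,7-naphthalenediol, 0.28 ± 0.0436 (adjusted p = 0.000883) with 1,5-naphthalenediol, 0.23 ± 0.0436 (adjusted p = 0.00503) with 1-naphthol and 0.31 ± 0.0436 (adjusted p = 0.00182) with naphthalene, and was called with the slide as a block for all 4. Atf3, a factor induced downstream of ATF4, lay at 1.09, 1.31 and 1.42 in DMSO, at 1.38, 1.51 and 1.44 with 2,7-naphthalenediol, at 0.74, 0.83 and 0.97 with 1,5-naphthalenediol, at 1.08, 0.90 and 1.05 with 1-naphthol and at 0.98, 1.00 and 1.02 with naphthalene. It fell by 0.43 ± 0.0831 (adjusted p = 0.00365) with 1,5-naphthalenediol, by 0.27 ± 0.0831 (adjusted p = 0.0424) with 1-naphthol and by 0.27 ± 0.0831 (adjusted p = 0.0327) with naphthalene, of which the first was also called with the slide as a block (adjusted p = 0.00318, 0.124 and 0.113). The difference with 2,7-naphthalenediol was 0.17 ± 0.0831 (adjusted p = 0.2).

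Of 24 tested genes in a further list of ATF4-linked targets, which shares Cebpb, Atf3 and Jdp2 with the list of factors, 6 rose and 1 fell with 2,7-naphthalenediol, 3 and 6 with 1,5-naphthalenediol, 4 and 2 with 1-naphthol and 3 and 4 with naphthalene. The median difference of the 24 was 0.08, -0.07, -0.01 and 0.03 in the same order of compounds. With the slide in the model 3 were higher and 0 lower with 1-naphthol, and 1 and 0 with naphthalene. Slc7a11, the cystine importer, which NRF2 also drives, lay at -1.84, -1.99 and -1.96 in DMSO, at -1.29, -1.46 and -1.22 with 2,7-naphthalenediol, at -1.69, -1.81 and -1.89 with 1,5-naphthalenediol, at -1.29, -1.43 and -1.27 with 1-naphthol and at -1.64, -1.85 and -1.73 with naphthalene. The 2,7-naphthalenediol and 1-naphthol arrays were above all others. Slc7a11 rose by 0.60 ± 0.0793 (adjusted p = 0.00228) and 0.59 ± 0.0793 (adjusted p = 0.00133) with those compounds, and was 0.13 ± 0.0793 (adjusted p = 0.276) with 1,5-naphthalenediol and 0.19 ± 0.0793 (adjusted p = 0.103) with naphthalene. Gdf15, a stress cytokine, lay at -2.74, -2.80 and -2.77 in DMSO, at -1.66, -2.08 and -2.22 with 2,7-naphthalenediol, at -2.54, -2.39 and -2.38 with 1,5-naphthalenediol, at -2.33, -2.39 and -2.17 with 1-naphthol and at -2.23, -2.34 and -2.08 with naphthalene. It rose by 0.78 ± 0.119 (adjusted p = 0.00405) with 2,7-naphthalenediol, 0.47 ± 0.119 (adjusted p = 0.0182) with 1-naphthol and 0.55 ± 0.119 (adjusted p = 0.00813) with naphthalene, the first of which was called with the slide as a block. With 1,5-naphthalenediol the difference was 0.33 ± 0.119 (adjusted p = 0.0653).

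Fgf21, a liver hormone of amino acid shortage, lay at -0.67, -0.86 and -0.81 in DMSO, at -0.82, -0.81 and -0.90 with 2,7-naphthalenediol, at -1.31, -1.21 and -1.31 with 1,5-naphthalenediol, at -0.73, -0.76 and -0.81 with 1-naphthol and at -0.90, -0.74 and -0.95 with naphthalene. Its 1,5-naphthalenediol arrays were below all others, and it fell by 0.49 ± 0.0634 (adjusted p = 0.000259). Aldh18a1, which makes the precursor of proline, lay at -1.72, -1.72 and -1.65 in DMSO, at -1.74, -1.78 and -1.70 with 2,7-naphthalenediol, at -1.90, -2.09 and -2.15 with 1,5-naphthalenediol, at -1.93, -2.09 and -2.10 with 1-naphthol and at -2.10, -2.08 and -2.08 with naphthalene. It fell by 0.35 ± 0.0622 (adjusted p = 0.00213) with 1,5-naphthalenediol, by 0.34 ± 0.0622 (adjusted p = 0.00452) with 1-naphthol and by 0.39 ± 0.0622 (adjusted p = 0.00291) with naphthalene. The first of these was also called with the slide as a block (adjusted p = 0.00758) and the others were not (adjusted p = 0.351 and 0.229). Aldh1l2, a mitochondrial folate enzyme, fell by 0.40 ± 0.0824 (adjusted p = 0.00532) with 1,5-naphthalenediol.

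Of 14 other genes of the cytosolic charging machinery, 0 rose or fell with 2,7-naphthalenediol, 2 fell with 1,5-naphthalenediol, 1 with 1-naphthol and 5 with naphthalene. The median difference of the 14 was -0.01, -0.04, -0.02 and -0.14 in the same order of compounds. Of 14 mitochondrial synthetases, those called higher and lower numbered 1 and 1, 2 and 0, 2 and 0, and 1 and 2 in the same order. Under the slide block 0 genes of either list were called with 1-naphthol or naphthalene. For comparison, a list of ER chaperones and XBP1 targets was made for branches of ER stress other than that of ATF4. As listed, it shares Dnajc3 with the genes of eIF2 control and Atf6 with the bZIP factors. Its 19 tested genes showed 6 higher and 0 lower with each diol, 7 and 0 with 1-naphthol, and 2 and 6 with naphthalene. In the slide block model these were 6 and 0 with 2,7-naphthalenediol, 7 and 0 with 1,5-naphthalenediol, 4 and 0 with 1-naphthol, and 0 and 0 with naphthalene. Syvn1, an ER ubiquitin ligase, rose with all 4 compounds (0.44, 0.29, 0.39 and 0.26), while Hsp90b1, an ER chaperone, fell by 0.38 ± 0.0763 (adjusted p = 0.0059) with naphthalene. With the slide as a block the naphthalene calls of Syvn1 and Hsp90b1 were lost (adjusted p = 0.0671 and 0.418). Herpud1, an ER degradation protein in the list of further targets, lay at 3.63, 3.50 and 3.51 in DMSO and at 3.92, 3.92 and 3.84 with 2,7-naphthalenediol. All arrays of both diols and 1-naphthol were above those of DMSO, at differences of 0.35 ± 0.0545 (adjusted p = 0.00445), 0.39 ± 0.0545 (adjusted p = 0.000454) and 0.46 ± 0.0545 (adjusted p = 0.00076).

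**Figure D5:**
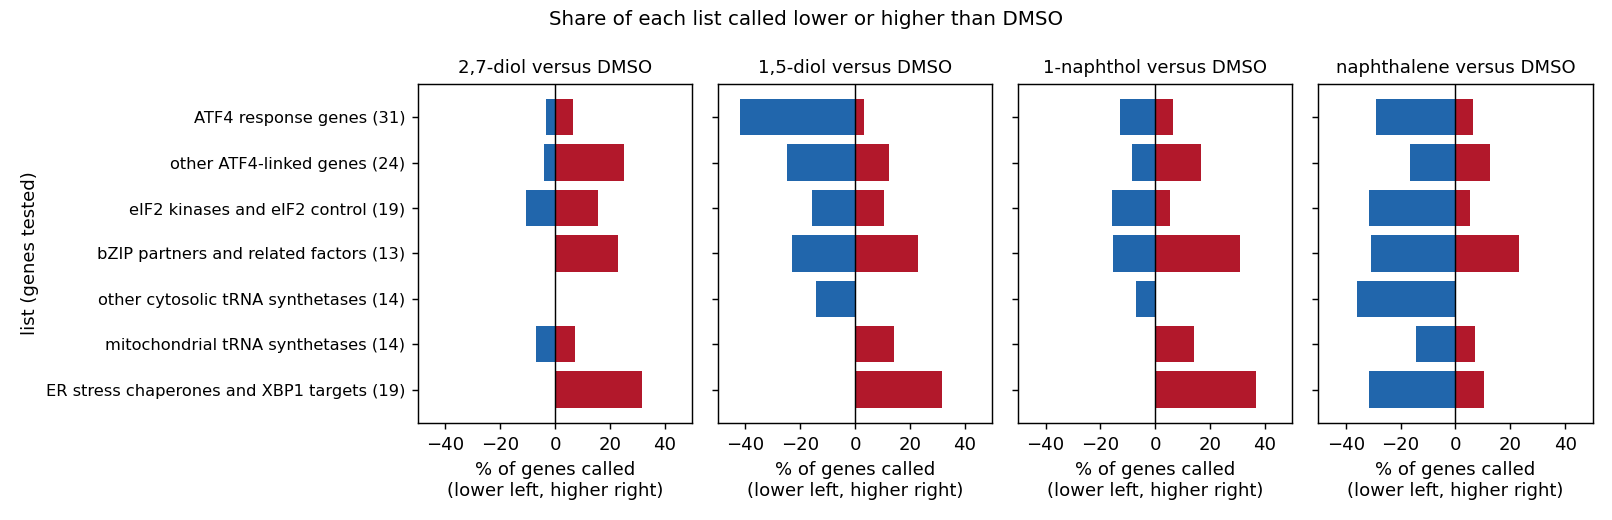
Share of each list (rows, number of tested genes in parentheses) called lower (blue, to the left of 0) or higher (red, to the right) than DMSO, as a percent of the tested genes, 1 panel per compound. For 1,5-naphthalenediol the blue bar of the ATF4 response genes stands for 13 of 31 genes and that of ER chaperones is absent, with 0 of 19 lower.

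Over all 5 groups, limma's F test called 22 of the 31 genes at an adjusted p below 0.05, against 44.2% of all genes tested. Those not called were Ddit3, Sesn2, Psph, Slc38a2, Aars1, Sars1, Nars1, Tars1 and Yars1.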

How the data were processed

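RNA from 15 hepatocyte cultures was hybridised to 1-colour Agilent arrays. The authors deposited 1 processed intensity per spot, made with Feature Extraction 10.7.1.1 per the file headers, which also show that it was background-subtracted but not normalized between arrays. Here the log2 intensity was taken relative to the array's 75th percentile over gene spots, without control and outlier spots, and spots of 1 probe were averaged. Probes were named through their transcript accession in the RefSeq genes of assembly GRCr8, where 21229 of 45598 gene probes matched a symbol. Kept probes had a value on all arrays and were well above background on every array of some group, and the brightest stood for a gene, which left 19803 genes, 10503 of them with a symbol.

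The 5 group means were fitted in 1 model over all arrays with lmFit and eBayes of limma 3.58.1, run in R 4.3.3 with data.table, version 1.17.8. There were 10 comparisons and an F test, with Benjamini-Hochberg adjusted p-values over all genes of a comparison and 95% confidence intervals for single genes. The scripts were tested on simulated data. A fold is a lower bound where some array of the lower group was dim: such an array entered at no less than its own lowest signal called well above background. The bound is on the fold of the group means and leaves out the spread between arrays. The number of arrays limits the precision. The members and the lists were chosen with earlier results of these data known. Values on every array are given for Atf4, Ddit3, Trib3, Nupr1, Asns, Psat1, Phgdh, Chac1, Sesn2 and Slc7a11 and for members among the 6 largest called differences of a comparison. Of other lists at most the 4 largest called genes of a comparison are named as changed, apart from Atf3 with naphthalene and Aldh18a1 with 1,5-naphthalenediol, added beside their other values, and which of them are given by array was chosen after their values were seen. Alternatives were quantile normalization, the array median, normexp with an offset of 50, other filters on dim probes, the mean of a gene's probes, the slide or the replicate number as a block, single slides, separate fits, an intensity trend and leaving out each array. Promoters are from RefSeq, build GRCr8, with no entry for Gars1 and Eif4ebp1. The file headers name an older build, so probe coordinates are not given.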

Additional observations from a re-analysis of the deposited data

How the results depend on the processing

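Across 27 alternative settings no call changed its direction. Of the values compared under them 4635 kept their side of the threshold, 372 calls were lost and 129 were gained, a change of sign without a call being counted as kept. Most of the values compared were not called in the main model and had no call to lose. The kept count therefore does not measure how often calls held, which is given for each comparison above. Counts below are of the 31 genes called, and the cause of a change was not tested unless named. They are set against all genes under the same setting only where the sections above do so. Elsewhere the share over all genes is not given, so a count there is not a result about the 31 genes. Without a filter on dim probes, which adds genes to the adjustment, the counts were 1 with 2,7-naphthalenediol, 8 with 1,5-naphthalenediol, 2 with 1-naphthol and 4 with naphthalene against DMSO, 8 between the diols, 0 between 1-naphthol and naphthalene, 2 and 6 for 1,5-naphthalenediol against 1-naphthol and naphthalene, 3 for 2,7-naphthalenediol against naphthalene, and 12 in the F test. When each comparison was fitted on its own 2 groups, with fewer arrays, the counts were 8 and 4 for 1,5-naphthalenediol and naphthalene against DMSO, 3 between the diols, 0 between 1-naphthol and naphthalene, 1 and 4 for 1,5-naphthalenediol against these, and 5 and 3 for 2,7-naphthalenediol against these. With probes well above background on all 15 arrays they were 5 for 2,7-naphthalenediol against DMSO and 2 for 1-naphthol against naphthalene.

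Quantile normalization gave 5 for 2,7-naphthalenediol and 7 for naphthalene against DMSO and 6 for 2,7-naphthalenediol against 1-naphthol. The array median gave 19 for naphthalene against DMSO and 3 for 1-naphthol against naphthalene, and normexp on the median spot signal, chosen after seeing the data, gave 3 there and 7 for 2,7-naphthalenediol against 1-naphthol. Normexp on the mean signal was not run, since the files used here hold no mean signal. An intensity trend with robust spread gave 7 for 2,7-naphthalenediol against DMSO, 5 for 1-naphthol against naphthalene, 10 for 1,5-naphthalenediol and 8 for 2,7-naphthalenediol against 1-naphthol. The slide block gave 6 for 2,7-naphthalenediol and 0 for 1-naphthol and naphthalene against DMSO, 2 between 1-naphthol and naphthalene, 2 and 4 for 1,5-naphthalenediol against these, and 0 and 0 for 2,7-naphthalenediol against these. On slide 1 alone 6 were called between the diols, and on slide 2 alone 0 between 1-naphthol and naphthalene and 0 and 1 for 1,5-naphthalenediol against these. Of all calls over the array, the higher share was 25.4% relative to the array median and 66.4% under quantile normalization with 2,7-naphthalenediol, where it was 51.5% in the main model, and 20.2% relative to the array median with naphthalene, where it was 48.7%.

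Samples share only a replicate number and were not treated as paired, since deviations from the group means correlated above 0.1 in 2 of 30 pairs with the same number, and the best match of an array had its number for 5 of 15 arrays. With the replicate number as a block, 5 genes were called for 2,7-naphthalenediol against DMSO and 0 for 1-naphthol against naphthalene, and the other counts stayed within 1.5 times the main ones. Leaving out each array in turn gave 1 to 2 calls for 2,7-naphthalenediol, 10 to 14 for 1,5-naphthalenediol, 2 to 4 for 1-naphthol and 4 to 10 for naphthalene against DMSO, 8 to 13 between the diols and 0 to 1 between 1-naphthol and naphthalene. For 1,5-naphthalenediol it gave 2 to 5 against 1-naphthol and 7 to 12 against naphthalene, for 2,7-naphthalenediol 2 to 4 and 3 to 7, and 17 to 23 in the F test.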
